A study of Homo sapiens with 16 samples.

Results

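The beta-globin interval of human chromosome 11 was described in Hi-C maps, which count pairs of DNA ends that were ligated because they lay near each other in the nucleus. It covered chr11:5200001-5340000 of build hg19 and was taken as the 7 bins of 20 kb that fill this span, of 137198 bins present in all 8 libraries. The 5 genes HBB, HBD, HBG1, HBG2 and HBE1 and the control region were placed by fixed positions, and contacts were followed within chr11:4000001-7000000. The rule for that choice used no measured value, though it was made with earlier results of these data known. The nuclei came from K562, an established human leukaemia line, and cells in every group were fixed with formaldehyde before digestion with the restriction enzyme HindIII. Digestion lasted 0.25 h, 1 h, 3 h or 12 h, with 2 replicate libraries per time and no undigested or untreated group. The series states that short digestion was meant to capture accessible boundaries between chromatin domains, so the comparison here is between digestion times. The labels do not say whether replicates were separate cultures, so p-values measure the spread between these libraries, which may be technical.

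The beta-globin genes encode the beta-type chains of haemoglobin and lie in the order in which they are used in development, with the embryonic gene HBE1 nearest to a shared enhancer array called the locus control region. This control region is a cluster of DNase hypersensitive sites that is known to loop to the active globin genes in erythroid cells. K562 cells are known for making embryonic and fetal rather than adult globin chains. Hi-C measures no expression, so that identity could not be checked against marker genes here. Sites bound by the architectural protein CTCF are known on both sides of the cluster, beyond HBB and at the far end of the control region.

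The 5 genes shared 3 bins. The bin chr11:5240001-5260000 held HBB and HBD, the adult beta and delta chain genes. The next, chr11:5260001-5280000, held HBG1 and HBG2, the fetal gamma chain genes, which are near-identical copies and cannot be separated at this bin size. The bin chr11:5280001-5300000 held HBE1 and 3 kb of the control region, and chr11:5300001-5320000 held the other 13 kb of it and is called the control region bin. The remaining 3 bins held none of these items. They are called the lower flank bin (chr11:5200001-5220000), the 3′ flank bin beyond HBB (chr11:5220001-5240000) and the higher flank bin (chr11:5320001-5340000). By gene order in a RefSeq table of a later assembly, the cluster sits between olfactory receptor genes, with OR51V1 next to HBB and OR51B4 next to HBE1.

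A promoter sequence from RefSeq could be matched for only 1 of the 5 members, HBD, whose bin had the lowest coverage of the interval. It spans chr11:5234434-5234733 of GRCh38.p14 on the minus strand, from 250 bases before the transcription start to 50 after it. Capitals mark letters that match CCAAT and GATAA, and whether either match acts in the promoter was not tested.
HBD promoter: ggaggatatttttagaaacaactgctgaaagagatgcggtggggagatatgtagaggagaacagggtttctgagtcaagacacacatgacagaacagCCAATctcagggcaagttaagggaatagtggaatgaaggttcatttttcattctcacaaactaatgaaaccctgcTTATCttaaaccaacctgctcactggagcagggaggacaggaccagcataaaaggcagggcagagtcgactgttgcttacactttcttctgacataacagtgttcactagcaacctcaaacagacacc
The motif CCAAT was found once, starting at -153 from the transcription start. The motif GATAA, bound by GATA factors, was found once as its reverse complement TTATC, starting at -78, and the matches do not overlap. Searched on both strands, CCAAT was present in 34.6% and GATAA in 22.7% of 35116 promoters of the same length. The HindIII site AAGCTT was not in this window, as in all but 5.84% of promoters, and neither was CACCC, which 59.9% held.

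Library depth ranged from 62777251 to 176412222 contacts, and both 12 h libraries were deeper than all others. The interval had 5581 to 15494 contacts with other bins per library and 700 to 1537 contacts inside single bins. Of all contacts touching the interval, 44.0% to 46.4% went to the rest of the 3 Mb window in each library and 10.9% to 12.8% joined different bins of the interval. PCR copies cannot be told from independent molecules in these counts.

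The control region bin had the highest coverage of the interval, and the HBB and HBD bin the lowest. Coverage is the number of contacts with other bins, scaled to 1000000 such contacts in the library. In the control region bin it was 33.3 and 37.4 after 0.25 h in replicates 1 and 2, 34.97 and 35.7 after 1 h, 33.3 and 34.8 after 3 h, and 31.8 and 31.3 after 12 h. In the HBB and HBD bin it was 5.77 and 5.71 after 0.25 h, 5.90 and 6.05 after 1 h, 6.04 and 5.76 after 3 h, and 5.73 and 6.14 after 12 h. Both ranges lie far apart in every library: the mean over 8 libraries was 34.1 ± 2.03 (SD) for the control region bin, at percentile 96.8 of all bins, and 5.89 ± 0.169 for the HBB and HBD bin, at percentile 14.8. The HBG1 and HBG2 bin had a mean of 20.8 (percentile 79.6) and the HBE1 bin 13.2 (percentile 51.4), against a median of 12.95 over all bins. The 3′ flank bin was low at 8.31, and the lower and higher flank bins stood at 19.03 and 20.2.

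The bins also differed in how much of their contact stayed inside the bin. In the HBG1 and HBG2 bin these within-bin contacts numbered 268 to 577 per library, and in the control region bin 227 to 523. They numbered only 2 to 12 in the HBB and HBD bin, 4 to 18 in the 3′ flank bin and 7 to 27 in the HBE1 bin. The number of HindIII sites per bin was not analysed here, and its part in these levels was not tested.

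**Figure D1:**
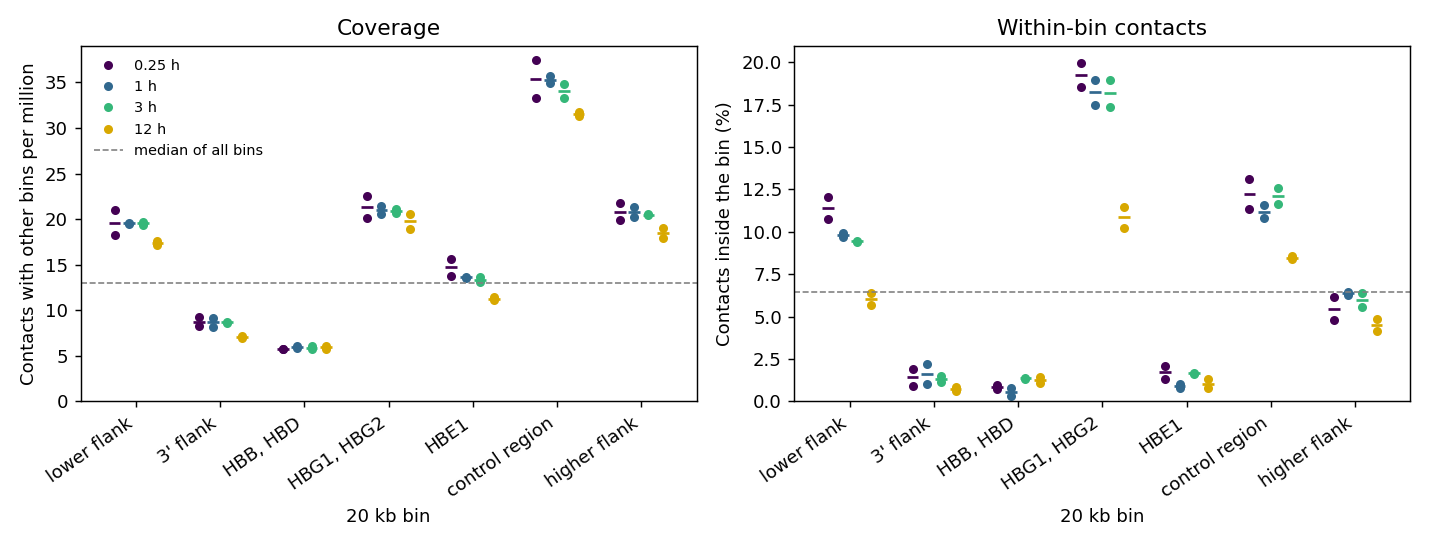
Coverage, scaled to 1000000 contacts (left), and percent of a bin's contacts that lie inside it (right) for the 7 bins of the interval, with 1 point per library, a bar at the mean of 2 replicates and colours for digestion time. The dashed line is the median of all bins; the control region bin stands highest on the left, and the HBG1 and HBG2 bin highest on the right.

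Coverage of the interval was higher after short digestion than after 12 h in most of its bins. At 0.25 h against 12 h, 5 of 7 bins were called higher and none lower by limma at an adjusted p of 0.05, beside 20.9% of 137197 bins tested that were called higher and 34.9% that were called lower. The HBE1 bin changed most: it had a coverage of 13.7 and 15.7 after 0.25 h, 13.6 and 13.7 after 1 h, 13.1 and 13.6 after 3 h, and 11.1 and 11.4 after 12 h. The 12 h libraries of this bin lay below all others, and the log2 difference of 0.25 h over 12 h was 0.38 (SE 0.054, limma adjusted p = 4.2e-06), at percentile 98.8 of all bins. The 3′ flank bin had a coverage of 8.32 and 9.22 after 0.25 h, 8.18 and 9.16 after 1 h, 8.77 and 8.63 after 3 h, and 7.22 and 7.00 after 12 h, again with the 12 h libraries lowest. Its log2 difference was 0.30 (SE 0.065, limma adjusted p = 0.000482).

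The control region bin was higher by 0.16 on the log2 scale (SE 0.044, limma adjusted p = 0.00378), the lower flank bin by 0.17 and the higher flank bin by 0.17. Without 0.25 h replicate 2 these 3 calls were lost, at 0.08 (limma adjusted p = 0.0988), 0.07 (0.235) and 0.10 (0.0653), and without 12 h replicate 2 both flank bins lost theirs (limma adjusted p = 0.0620 and 0.0837). The HBG1 and HBG2 bin did not pass, with a log2 difference of 0.11 (SE 0.050, limma adjusted p = 0.0646), and passed with the replicate number as a block (adjusted p = 0.0150). The fit with the block was not repeated with libraries left out. In fits without the block, single libraries moved the log2 difference of this bin. It was 0.19 without 0.25 h replicate 1, 0.17 without 12 h replicate 2, 0.05 without 12 h replicate 1 and 0.03 without 0.25 h replicate 2. Also without the block, the HBG1 and HBG2 bin passed on contacts within chromosomes only (0.17, limma adjusted p = 0.00571) and with median-of-ratios scaling (0.16, limma adjusted p = 0.0130). The HBB and HBD bin differed by -0.05 (SE 0.069, limma adjusted p = 0.586). Without 0.25 h replicate 2, 2 of the 7 bins passed, while the share of all bins called in either direction was 52.3%, against 55.8% with it. Counting contacts between chromosomes alone left 0 of 6 bins tested, with 1 at an unadjusted p under 0.05, and 7.42% of all bins.

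The calls against 12 h were similar in number for the other times. At 1 h against 12 h, 5 of 7 bins were called higher (18.2% of all bins), and 3 were without either 1 h replicate 1 or 12 h replicate 2. The share of all bins called in either direction was then 33.7% and 28.3%, against 46.99% with all libraries. At 3 h against 12 h, 4 of 7 were called higher (14.4% of all bins), and 2 were without 3 h replicate 1, 3 h replicate 2 or 12 h replicate 2. The share in either direction was then 20.5%, 27.7% and 17.9%, against 38.5%. Along log2 hours, 5 of 7 bins fell by limma's linear trend (21% of all bins), and 2 did without 0.25 h replicate 2, where 53.1% of all bins were called in either direction against 55.6%. Between neighbouring shorter times, limma called 0 of 7 bins at 0.25 h against 1 h and 0 at 1 h against 3 h. In those contrasts 0% of all bins were called and 0 of the 7 had an unadjusted p under 0.05, beside 13635 and 8042 bins genome-wide.

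Whether within-bin contacts include fragments not cut or rejoined over a short distance was not checked. Within-bin contacts could be tested in 4 of the 7 bins, those with a mean of at least 50. In the HBG1 and HBG2 bin they made up 18.5% and 19.97% of the bin's contacts after 0.25 h, 18.97% and 17.5% after 1 h, 18.9% and 17.4% after 3 h, and 11.4% and 10.2% after 12 h. In the control region bin the shares were 13.1% and 11.3% after 0.25 h, 11.6% and 10.8% after 1 h, 11.7% and 12.6% after 3 h, and 8.60% and 8.37% after 12 h. In both bins the 12 h libraries lay below all 6 others. The log2 ratio of within-bin to other contacts was higher at 0.25 h than after 12 h by 0.97 in the HBG1 and HBG2 bin (SE 0.13, limma adjusted p = 8.73e-05) and by 0.58 in the control region bin (SE 0.14, limma adjusted p = 0.00248).

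In all, 3 of these 4 bins were called higher at 0.25 h than after 12 h, where 90.4% of 86593 bins were, and the genome median was a log2 difference of 0.95. The bin not called was the higher flank bin at 0.29 (SE 0.18, limma adjusted p = 0.148), at percentile 4.98 of all bins. Its value rested on single libraries: it was 0.10 (limma adjusted p = 0.624) without 0.25 h replicate 1, 0.47 (limma adjusted p = 0.0276) without 0.25 h replicate 2 and 0.16 (limma adjusted p = 0.504) without 12 h replicate 1. The control region bin stood at percentile 21.96. All 4 bins passed at 1 h against 12 h (89.6% of all bins) and at 3 h against 12 h (86.4%), and 3 fell along log2 hours (90%). The count at 3 h against 12 h fell when a 1 h, 3 h or 12 h library was left out. So did the share of all bins called. With contacts within 200 kb as the denominator the count was 3, with 77.4% of all bins called. Without 1 h replicate 1, the count at 1 h against 12 h was 2, with 78.8% of all bins called.

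The control region bin had more contact than expected for the distance with all 4 bins from the lower flank bin to the HBG1 and HBG2 bin. The gene bins among them had lower means than both flank bins beyond HBB, and the HBE1 bin lay at the expected level. Contact was measured as log2 observed over expected, the balanced contact frequency over the mean of all pairs at that distance in the same library. The pair of the control region and the 3′ flank bin, 80 kb apart, had 1.51 and 1.53 after 0.25 h, 1.47 and 0.97 after 1 h, 1.32 and 1.33 after 3 h, and 1.27 and 1.33 after 12 h. This pair was high in every library, with 1 h replicate 2 lowest at 31 contacts. Its mean of 1.34 ± 0.18 (SD, n = 8) is 2.54 times the expected level and stood at percentile 99.3 of 134286 pairs at that distance.

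The pair of the control region and the HBB and HBD bin had 0.82 and 0.57 after 0.25 h, 0.68 and 0.96 after 1 h, 0.77 and 0.64 after 3 h, and 0.45 and 0.67 after 12 h. It rested on 15 to 51 contacts per library, and times overlapped. The pair with the HBG1 and HBG2 bin had 0.68 and 0.70 after 0.25 h, 0.73 and 0.57 after 1 h, 0.69 and 0.57 after 3 h, and 0.47 and 0.48 after 12 h. It rested on 118 to 273 contacts per library, and both 12 h libraries were the lowest of the 8. The means were 0.69 ± 0.16 (1.62 times expected, percentile 95.9) for the adult genes and 0.61 ± 0.10 (1.53 times expected, percentile 95.8) for the fetal genes.

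The pair with the HBE1 bin had 0.12 and -0.07 after 0.25 h, -0.16 and -0.02 after 1 h, -0.02 and 0.05 after 3 h, and -0.04 and -0.24 after 12 h. It scattered around the expected level, with a mean of -0.05 ± 0.11 (percentile 54.3), although the HBE1 bin itself holds part of the control region. The lower flank bin, 100 kb away and without a globin gene, had 0.98 and 0.80 after 0.25 h, 0.82 and 1.02 after 1 h, 1.06 and 0.83 after 3 h, and 0.91 and 0.55 after 12 h. Its mean of 0.87 ± 0.16 (1.83 times expected, percentile 96.3) was above those of both gene bins. On the other side, the higher flank bin had a mean of -0.08 ± 0.062 with the control region bin. The higher flank bin, which holds no control region, was itself above expectation with several of the same bins. It had 1.14 ± 0.27 with the 3′ flank bin, 0.64 ± 0.28 with the HBB and HBD bin and 0.55 ± 0.13 with the lower flank bin. With the HBG1 and HBG2 bin it had -0.09 ± 0.15, and with the HBE1 bin -0.43 ± 0.27.

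From high to low, the means ran from the 3′ flank bin to the lower flank bin, the HBB and HBD bin, the HBG1 and HBG2 bin and the HBE1 bin. The order was read from these values, so it is a description with no test. These pairs also lie at different distances. Ranked among pairs at its own distance, the lower flank bin (percentile 96.3) was close to the HBB and HBD bin (95.9) and the HBG1 and HBG2 bin (95.8). The 3′ flank bin was higher than the lower flank bin in 7 of 8 libraries, by a mean of 0.47 ± 0.27 (SD) on the log2 scale. The lower flank bin was higher than the HBB and HBD bin in 7 of 8, by 0.18 ± 0.17, and this in turn was higher than the HBG1 and HBG2 bin in 5 of 8, by 0.08 ± 0.16, which is less than the spread. The HBG1 and HBG2 bin was higher than the HBE1 bin in 8 of 8, by 0.66 ± 0.13.

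**Figure D2:**
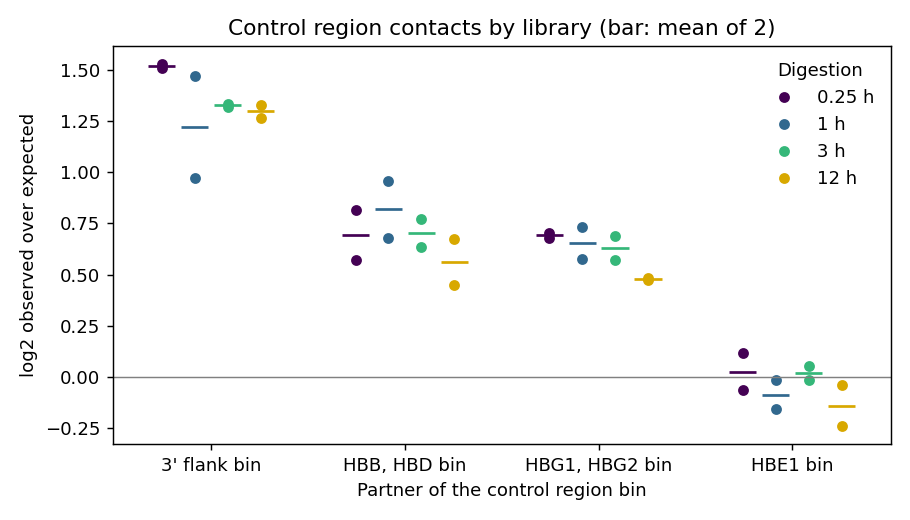
Log2 observed over expected contact of the control region bin with 4 partner bins, 1 point per library, bars at the mean of 2 replicates and colours for digestion time. The 3′ flank partner is highest, the adult and fetal gene bins overlap each other, and the HBE1 partner lies around 0, the expected level.

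Digestion time gave no called change in these contacts. Of 134 pairs that joined a bin of the interval to a bin of the window and had a mean of at least 10 contacts, limma called 0 at 0.25 h against 12 h, as it called 0% of 1279664 pairs genome-wide. At an unadjusted p under 0.05 there were 6 of 134 (4.48%), beside 5.94% of all pairs. The median log2 difference of the 134 pairs was 0.14, with 88 above 0, beside -0.00063 over all pairs. The control region pairs had differences of 0.22 (SE 0.25) with the 3′ flank bin, 0.21 (SE 0.22) with the HBG1 and HBG2 bin, 0.13 (SE 0.24) with the HBB and HBD bin and 0.17 (SE 0.22) with the HBE1 bin. Without balancing they were 0.46, 0.37, 0.09 and 0.50, none of them called (limma adjusted p from 0.467 to 0.918). Leaving out 1 library moved the HBB and HBD pair between 0.0087 (without 0.25 h replicate 1) and 0.26 (without 0.25 h replicate 2), and the HBE1 pair between 0.07 and 0.27 (without 12 h replicate 2 and 1). On simulated data with few changed pairs, the fit recovered 7.6% of pairs changed 2-fold, so a change of that size may well not have been called. The other contrasts also gave 0 calls, here and over all pairs. At an unadjusted p under 0.05 there were 7 of 134 pairs (5.22%, beside 4.30% of all pairs) for 1 h against 12 h. There was 1 (0.746%, beside 3.03%) for 3 h against 12 h, and there were 8 (5.97%, beside 5.93%) for the trend.

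The pair of the interval with the smallest unadjusted p joined the HBG1 and HBG2 bin to chr11:5380001-5400000, 120 kb away. Its log2 observed over expected was 1.10 and 1.03 after 0.25 h, 0.07 and 0.15 after 1 h, 0.61 and 0.64 after 3 h, and 0.34 and 0.18 after 12 h. Replicates lay close together at each time, but the levels followed no order in time, and the 0.25 h over 12 h difference of 0.80 (SE 0.21) had a limma adjusted p of 0.839.

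Among the gene bins themselves, the HBB and HBD bin lay below expectation with both of its neighbours. The HBB and HBD bin with the adjoining 3′ flank bin had the lowest mean of the 21 pairs, -0.89 ± 0.50, on 3 to 24 contacts per library. The HBB and HBD bin with the adjoining HBG1 and HBG2 bin had -0.69 ± 0.27, and was below 0 in all 8 libraries. The HBG1 and HBG2 bin with the HBE1 bin had 0.24 ± 0.14, above 0 in all 8, and the HBB and HBD bin with the HBE1 bin had 0.38 ± 0.28.

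The contacts of the control region bin were uneven over longer distances. Of the pairs of the control region bin at least 100 kb apart within the window, 33 had a mean of at least 10 contacts, and among these the highest was with chr11:5140001-5160000, 160 kb away beyond HBB. Its values were 1.60 and 1.72 after 0.25 h, 1.67 and 1.65 after 1 h, 1.49 and 1.69 after 3 h, and 1.42 and 1.63 after 12 h, on 66 to 163 contacts. It was high at every time, and the mean of 1.61 ± 0.10 is 3.05 times expected. This partner was not high with the control region bin alone. Its means with the other bins of the interval ran from 0.72 (lower flank bin) to 1.44 (3′ flank bin), with 1.27 for the higher flank bin. Outside the interval it had 1.98 with chr11:5380001-5400000. The bins on each side of this partner, chr11:5120001-5140000 and chr11:5160001-5180000, were also among the highest 5 of these 33, with means of 1.09 ± 0.079 and 0.99 ± 0.15. The other members of the 5 lay farther off, at chr11:4620001-4640000 (680 kb, mean 1.19 ± 0.24) and chr11:4640001-4660000 (660 kb, mean 1.17 ± 0.46), on only 5 to 21 contacts per library. They stood at percentiles 93.0 and 92.9 of pairs at their distances. Their means of 13.75 and 14 contacts were 2.28 and 2.24 times expected, so at the expected level both would have missed the minimum of 10. Their place among the 33 thus depends on that filter.

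The HBB and HBD bin, with its low coverage, had 4 pairs at that distance that reached a mean of 10 contacts. The highest was again with chr11:5140001-5160000, with a mean of 0.92 ± 0.38 on 8 to 27 contacts. The others were with chr11:5380001-5400000 (0.61 ± 0.39), chr11:5100001-5120000 (0.02 ± 0.66) and chr11:5340001-5360000 (-0.10 ± 0.50), and both of the last pairs spread on both sides of 0.

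A corner visible in the map joined the 3′ flank bin to chr11:5380001-5400000, 160 kb away, and was picked after its values were seen. Its mean log2 observed over expected was 1.95 ± 0.25 (3.86 times expected, percentile 99.7), with 22 to 49 contacts per library and a range of 1.61 to 2.34. Group means were 2.09 after 0.25 h, 2.05 after 1 h, 1.86 after 3 h and 1.80 after 12 h. The control region bin with the same partner, 80 kb away, had a lower mean of 0.36 ± 0.17.

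**Figure D3:**
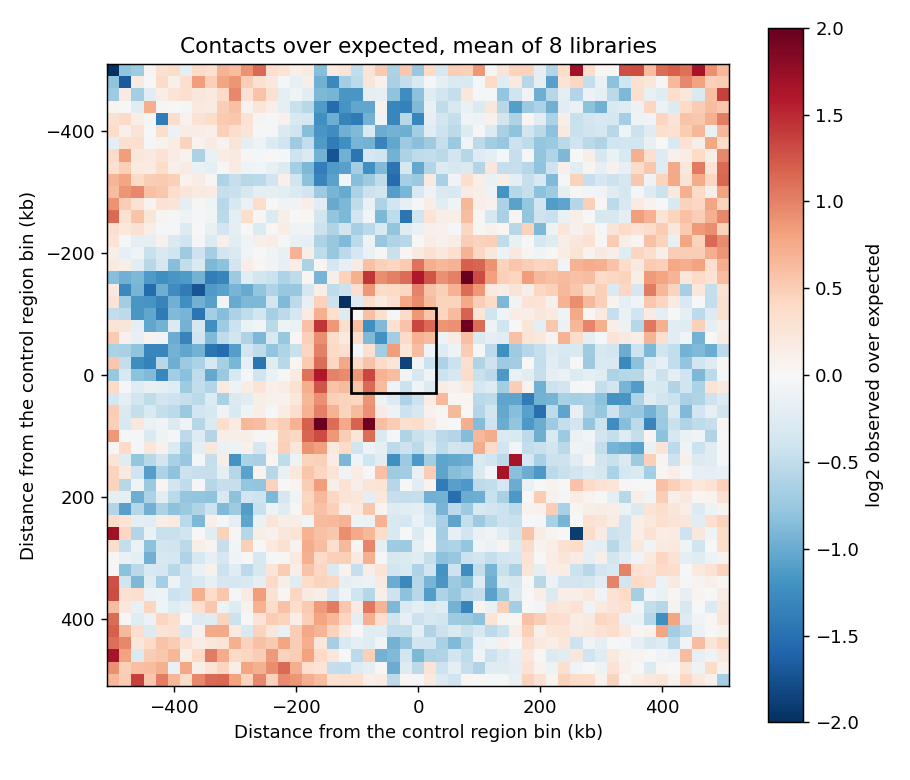
Mean log2 observed over expected contact of 8 libraries for bins within 500 kb of the control region bin, with distance in kb on both axes and the interval outlined. Dots of high contact that touch the interval include those that join the control region bin at 0 to bins at -80 and -160 kb. They also include those that join the 3′ flank bin at -80 kb to bins at -160 and 80 kb. Further dots lie outside the interval, such as that between -160 and 80 kb.

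**Figure D4:**
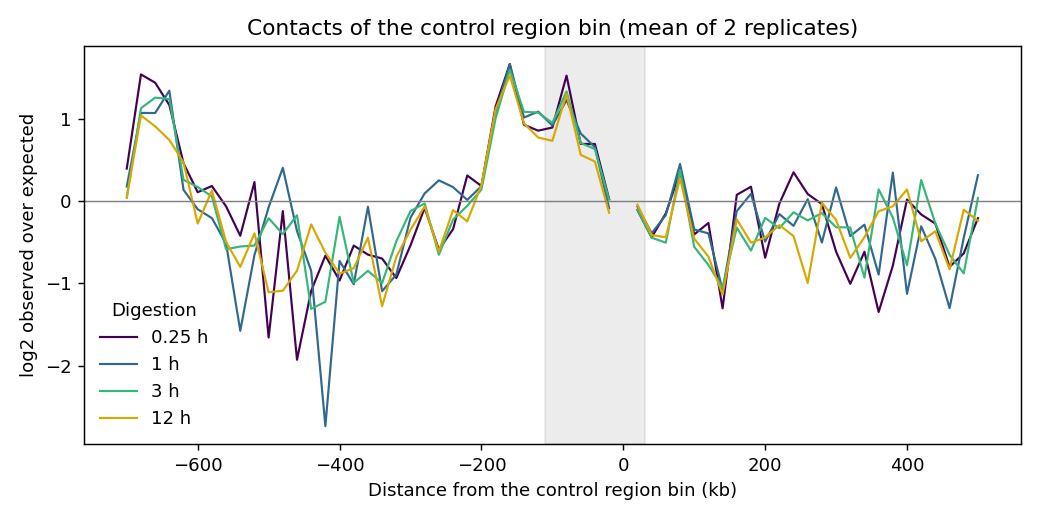
Log2 observed over expected contact of the control region bin against distance in kb, 1 line per digestion time (mean of 2 replicates), with the interval shaded. The lines peak together at -160 and -80 kb and lie below 0 over much of the higher-coordinate side.

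Summed at equal distances from 40 kb to 1 Mb, the control region bin had more contact on the lower-coordinate side, which holds the globin genes, than on the other. The log2 ratio of lower over higher side was 0.73 and 0.59 after 0.25 h, 0.75 and 0.78 after 1 h, 0.79 and 0.64 after 3 h, and 0.69 and 0.71 after 12 h. All 8 libraries favoured the lower side, with a mean of 0.71 ± 0.069, a 1.64-fold ratio of balanced signal. Before balancing, the contacts of all 8 libraries numbered 8139 on the lower and 5589 on the higher side. Leaving out distances under 100 kb, and with them the globin genes, the log2 ratio was 0.57 ± 0.11, still in favour of the lower side.

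The interval lay inside a stretch bounded by a low insulation score on each side. The score is the log2 of balanced contact across a bin, in squares of 200 kb, over the mean of the window, so that a low value means few contacts cross. The lower edge was at chr11:5100001-5120000 with a score of -0.71 ± 0.065, and the higher edge at chr11:5460001-5480000 with -0.60 ± 0.055. They are 360 kb apart, and the window held 7 such minima, among which they ranked 4 and 6 from the lowest score. For each edge, 7 of 8 libraries had their own minimum within 20 kb of this position. The exceptions were 0.25 h replicate 2, 60 kb off at the lower edge, and 12 h replicate 1, 40 kb off at the higher edge. Within the interval the score was highest in the HBG1 and HBG2 bin in all 8 libraries, with a mean of 0.52 ± 0.033.

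Contact fell off beyond these edges for the control region and the fetal genes. Over bins between the edges, the control region bin had a log2 observed over expected of 0.47 ± 0.064, compared with -0.48 ± 0.12 beyond the lower edge and -0.32 ± 0.10 beyond the higher one. The HBG1 and HBG2 bin had 0.19 ± 0.077, -0.93 ± 0.17 and -0.56 ± 0.19 over the same stretches. The HBB and HBD bin had 0.36 ± 0.12 between the edges and -0.72 ± 0.28 beyond the lower one, but -0.01 ± 0.23 beyond the higher one. Beyond the higher edge, the 3′ flank bin stayed above expectation at 0.28 ± 0.17, and the lower flank bin had 0.09 ± 0.15. The HBE1 bin had -0.37 ± 0.15 there, and the higher flank bin -0.31 ± 0.089. Of the 7 bins, 6 had less contact beyond the lower edge than beyond the higher one, the higher flank bin being the exception. Edges were placed on these same maps, so the differences are given as a description.

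**Figure D5:**
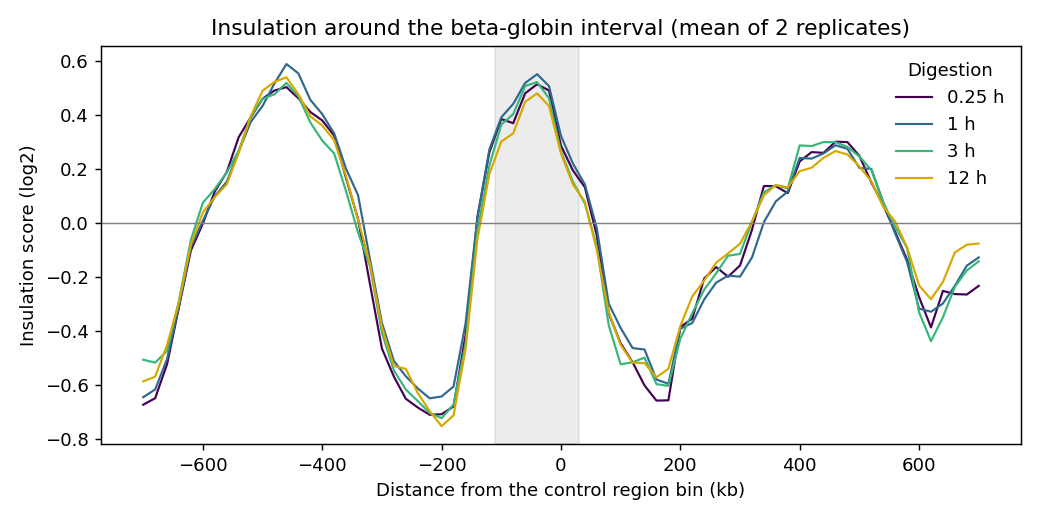
Insulation score against distance in kb from the control region bin, 1 line per digestion time (mean of 2 replicates), with the interval shaded. The interval sits on a maximum between minima near -200 and 160 kb at all 4 times.

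None of 10 trends of the interval's summary values with digestion time passed after adjustment. Each was a Spearman correlation with log2 hours over 8 libraries, with an exact two-sided permutation test over 2520 arrangements, which shuffled times across replicates. Replicate 2 was higher than replicate 1 at all 4 times for coverage and for the share with other chromosomes. With times permuted only within replicate numbers, none of the 10 passed either, and the smallest adjusted p was 0.116 (exact permutation). Each of these was adjusted with the other trends kept at their unrestricted p, so the 10 were not adjusted as 1 set. The within-bin share of all contacts touching the interval was 11.5% and 11.1% after 0.25 h, 10.9% and 10.3% after 1 h, 10.8% and 10.8% after 3 h, and 7.22% and 6.88% after 12 h. The 12 h libraries lay apart from the rest, with rho -0.878 (exact p = 0.0103, adjusted 0.0992) and Pearson's r -0.846 (exact p = 0.00556). Without the 12 h libraries r was -0.642, and without the 0.25 h libraries -0.871. Counted per bin, so that a contact between bins counts once for each of its bins, the share had means of 10.1% after 0.25 h and 6.35% after 12 h in the interval, beside 12.6% and 6.15% over all bins.

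Of the contacts with other bins, leaving out those within a bin, the share with other chromosomes was 16.8% and 17.9% after 0.25 h, 16.8% and 17.5% after 1 h, 17.95% and 18.5% after 3 h, and 20.1% and 20.2% after 12 h. Again the 12 h libraries were highest, with rho 0.830 (exact p = 0.0198, adjusted 0.0992) and r 0.858 (exact p = 0.00952). Without 12 h the r was 0.560, and without 0.25 h it was 0.971. Counted per bin, the means were 15.2% after 0.25 h and 17.97% after 12 h in the interval, beside 12.6% and 13.5% over all bins. In the first sequencing run, in bins of 50 kb, this trend had rho 0.927 (exact permutation p = 0.00317, adjusted 0.0317). The titles give both runs the same times and replicate numbers, so the first run is not an independent repeat. Its 50 kb bins also reach past the higher end of the interval. Each first-run p was adjusted with the other trends kept at their second-run p. The other 4 trends computed there did not pass after adjustment (exact permutation tests): rho was -0.537 for the within-bin share, -0.488 for coverage, -0.195 for the share between the interval's own bins and 0.098 for contact between the first and the last 50 kb bin. In the second run the share between the interval's own bins had rho -0.781, and contact of the control region bin with the 3′ flank bin had rho -0.634. The first 50 kb bin also holds the lower flank bin and HBB, so the signs of these unlike pairs are not compared.

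Of the interval's contacts within the window, the share between its own bins was 22.1% and 21.6% after 0.25 h, 21.7% and 21.8% after 1 h, 21.7% and 20.6% after 3 h, and 19.5% and 19.5% after 12 h. The 12 h libraries were lowest, with rho -0.781 (exact p = 0.0349, adjusted 0.116) and r -0.869 (exact p = 0.00635), which became -0.601 without 12 h and -0.932 without 0.25 h. Contact of the control region with the HBG1 and HBG2 bin had rho -0.732 (exact p = 0.0548, adjusted 0.137), with r -0.787 (exact p = 0.0294), -0.402 without 12 h and -0.763 without 0.25 h. The trends of coverage and insulation both had rho -0.683 (exact p = 0.0825, adjusted 0.138). Contact of the control region with the 3′ flank bin had rho -0.634 (exact p = 0.110), with the HBB and HBD bin -0.390 (exact p = 0.361) and with the HBE1 bin -0.293 (exact p = 0.514). The side preference had rho 0 (exact p = 1). Leaving out 1 library at a time moved rho from -0.77 to -0.13 for contact with the HBB and HBD bin. For contact with the HBE1 bin it moved from -0.53 to 0.02, and for the side preference from -0.17 to 0.44. Depth rose with time as well, so the part of depth in these trends cannot be told apart from that of digestion.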

How the data were processed

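The 16 deposited files held a balanced contact signal per pair of bins, as the authors made it, in bins of 50 kb for the first sequencing run and 20 kb for the second. HiC-Pro 2.11.1, Bowtie2 2.3.4.1 and build hg19 are named in the submitters' processing notes, with no role given. Bin numbers were converted to hg19 coordinates. Balancing removes coverage, so whole contacts were recovered by solving for bin factors: all listed values came within 0.01 of a whole number. Recovered totals equalled the deposited signal totals, except that 0.25 h replicate 2 of the first run gave 8919074 against 8918994. On a simulated balanced matrix 99.8% of 817876 pairs were recovered.

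The 8 libraries of the second run were compared. Coverage (mean of at least 100 contacts), within-bin ratios (at least 50) and pair log2 observed over expected (at least 10 contacts, up to 3 Mb, pseudocount 0.5) were fitted genome-wide with limma 3.58.1 (R 4.3.3, eBayes with trend) and adjusted by Benjamini-Hochberg at 0.05; trends used Python 3.11.15 and scipy 1.17.1. Tested on simulated data at 0.25 h against 12 h, the fits recovered 100% of 2-fold coverage changes, 87.4% of within-bin and 7.6% of pair changes, and 97.9%, 19.0% and 2.1% of changes of 0.5 on the log2 scale. In these simulations few features were changed, the spread between replicates was set low and pairs were not balanced. In the real fits 55.8% of bins were called for coverage and 90.4% for within-bin ratios, so the percentages need not hold there. Replicate numbers, from the titles in the labels, paired libraries for coverage: the correlation of deviations was over 0.1 in 6 of 6 pairs of times (0.110 to 0.254), against 3 of 6 for within-bin ratios and 0 of 6 for pairs. The named items are the 5 genes and the control region by bin, with the 5 highest pairs at least 100 kb away for the control region bin and the HBB and HBD bin. Members, lists and tests were chosen with earlier results of these data known. Alternatives covered scaling, filters, balancing, expected values, windows, the first run and each library left out. HindIII site counts were not used here.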

Additional observations from a re-analysis of the deposited data

How the results depend on the processing

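No called result reversed direction under any alternative run. Leaving out each library in turn gave 2 to 6 of 7 bins with called coverage at 0.25 h against 12 h, 3 to 5 at 1 h against 12 h, 2 to 5 at 3 h against 12 h and 2 to 6 for the trend, and 2 to 4 of 4 bins with called within-bin ratios at 1 h against 12 h. The shares of all bins called in either direction ranged over the same settings from 40.1% to 55.6%, 28.3% to 53.8%, 17.9% to 46.2%, 40.8% to 55.8% and 76.7% to 93.1%. Contacts between chromosomes alone gave 0 calls in each coverage contrast (limma, 6 of the 7 bins tested, with 1, 1, 0 and 1 at an unadjusted p under 0.05, and 7.42%, 2.12%, 0.246% and 7.55% of all bins called), and a denominator of contacts within 200 kb gave 2 within-bin calls at 1 h against 12 h (83.8% of all bins). Leaving out each library moved rho from -0.973 to -0.826 for the within-bin share, -0.973 to -0.679 for the share inside the interval and -0.973 to -0.532 for coverage; the ends at -0.973, without 1 h replicate 2, 0.25 h replicate 2 and 0.25 h replicate 1, passed adjustment (exact permutation adjusted p = 0.0317). The first run gave rho 0.927 for the share with other chromosomes, -0.537 for the within-bin share and -0.488 for coverage. It gave -0.195 for the share inside the interval (-0.781 in the second run) and 0.098 for contact between its first and last 50 kb bins. The first of these bins also holds the lower flank bin and HBB, so the second run's -0.634 for the control region with the 3′ flank bin is of another pair. Only the share with other chromosomes passed. Both runs have the same times and replicate numbers, so the first run is not an independent repeat. In the first run and in the leave-out fits, the p of each trend was adjusted with the other trends kept at their main p. With the replicate block, 6 of 7 bins were called for coverage at 0.25 h against 12 h, 6 at 1 h, 5 at 3 h and 6 for the trend, where 60.4%, 52.6%, 44.8% and 60.4% of all bins were called in either direction, and 3 of 4 within-bin ratios were called at 3 h against 12 h (87.5% of all bins). The cause of these shifts was not tested. The alternative without flanks used the 4 bins with genes or control region, since only these hold any; joining the HBE1 and control region bins gives no value for their own pair, and fitting only the times compared gives no trend. Depth limits the pairs: the HBB and HBD bin with the 3′ flank bin rested on as few as 3 contacts.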

Other observations

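Contacts of the interval with other chromosomes were spread unevenly. Set against the share that chromosome 11 as a whole sends to each chromosome, the interval had more contact with chromosomes 20, 17, 22, 19, 10 and 1 in all 8 libraries. The log2 ratio of the shares had a mean of 0.46 ± 0.16 (SD, n = 8) for chromosome 20, from 0.12 to 0.64 on 440 contacts, and of 0.44 ± 0.17 for chromosome 17, from 0.17 to 0.69 on 529 contacts. Chromosome 22 had 0.36 ± 0.18 and chromosome 19 had 0.26 ± 0.11. Chromosome 7 was lowest, at -0.25 ± 0.12, and below 0 in all 8 libraries. These chromosomes were picked as the ends of the list after the values were seen, so no test is given.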
